A study of Mus musculus with 27 samples.

Results

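Glutathione S-transferases join the tripeptide glutathione to electrophilic molecules, which makes them more soluble and marks them for export from the cell. Most are cytosolic dimers sorted by sequence into classes such as alpha (Gsta genes), mu (Gstm), pi (Gstp) and theta (Gstt), and the kappa enzyme Gstk1 belongs to a separate lineage found in mitochondria and peroxisomes. Hepatocytes carry very large amounts of these enzymes, and several of the genes are known to answer to Nrf2 (encoded by Nfe2l2), which binds the antioxidant response element, and to the nuclear receptor CAR (encoded by Nr1i3). The 10 genes described here, Gsta1, Gsta2, Gsta3, Gsta4, Gstm1, Gstm2, Gstm3, Gstp1, Gstt1 and Gstk1, were chosen by symbol from a table of 55414 genes. All 10 had a mean of at least 10 counts over the libraries and so were among the 14114 genes tested.

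The counts came from RNA sequencing of whole liver from 27 young adult female Balb/c mice in 8 groups. Control mice (n = 4) received olive oil into the peritoneum and phosphate-buffered saline by tail vein, and the CCl4 group (n = 2) received carbon tetrachloride, a hepatotoxin that Cyp2e1 converts to a radical in the hepatocytes around the central vein, for a fortnight to induce fibrosis. 4MU (4-methylumbelliferone, an inhibitor of hyaluronan synthesis) was given daily by gavage, with olive oil in the 4MU group (n = 3) and with CCl4 in the CCl4 + 4MU group (n = 4). Lipid nanoparticles with an siRNA against hyaluronan synthase 2 were injected by tail vein in the siHAS2-LNP (n = 3, olive oil) and CCl4 + siHAS2-LNP (n = 4) groups, and nanoparticles with an siRNA against luciferase, a target that mice lack, in the siLuc-LNP (n = 3) and CCl4 + siLuc-LNP (n = 4) groups. The labels name no genetic change in any mouse, and the CCl4 group, with 2 mice, was the smallest and entered 5 of the 13 comparisons.

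Library totals ran from 7044386 counts (CCl4 + siHAS2-LNP mouse 4) to 29425937. The liver label fitted the defining hepatocyte marker, since Alb was between 58085 and 172725 CPM (counts scaled to a common library size) in every library. Has2, the target of the siRNA, had between 0 and 2 counts in each library, so its knockdown could not be checked in these data. All CPM are scaled by TMM, a factor per library that sets the typical gene equal between libraries. A gene is said to have risen or fallen only where the adjusted p (Benjamini-Hochberg over all 14114 genes) of edgeR's quasi-likelihood test was under 0.05. In whole liver, fewer cells of a type and less RNA per cell cannot be told apart.

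By the GRCm39 annotation, Gsta4 (chr9:78090056-78117763, plus strand), Gsta1 (chr9:78137927-78149966, plus strand) and Gsta2 (chr9:78238292-78263077, minus strand) lay within 173 kb of each other. Gstm3 (chr3:107871012-107881730), Gstm2 (chr3:107889004-107893785) and Gstm1 (chr3:107919380-107925380), all on the minus strand, lay within 54.4 kb. The others stood alone among the 10, namely Gsta3 at chr1:21310806-21335885 (plus), Gstp1 at chr19:4085405-4088068 (minus), Gstt1 at chr10:75618994-75634445 (minus) and Gstk1 at chr6:42222830-42227386 (plus). Neighbours in these clusters are alike in sequence, which bears on their counts because reads that mapped to several places were left out. Of the 85-base windows of the main Gsta1 transcript, 83.5% also occurred in transcripts of another gene, mostly Gsta13, as did 50.1% for Gstp1 (all with Gstp2), 38.7% for Gsta2 (mostly with Gsta5), 22.0% for Gstm2, 18.5% for Gstm3 and 11.6% for Gstm1. No window of Gsta3, Gsta4, Gstt1 or Gstk1 was shared, so the counts of those 4 were the least exposed to this loss.

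The core of the antioxidant response element, TGACNNNGC, was searched on both strands from 1000 bases before to 50 bases after the start of each main transcript, because Nrf2 acts through it on members of this family. It stood in 3 of the 10 regions, against 6619 of 21752 (30.4%) of all protein-coding regions of that length. Gsta1 had 2 copies in tandem, with 6 bases between them, starting 697 and 682 bases before its start, Gsta3 had 3, and Gstt1 had 1. The sequences are from the GRCm39 genome, 5′ to 3′ on the strand on which the motif reads forward, with the motif in capitals. They are shown as a record of the matches, in Gsta1, which rose under CCl4, and in Gsta3 and Gstt1, which fell. The share of the 10 genes was near that of all protein-coding regions, so nothing about direction or cause is read from them.
Gsta1, chr9:78137214-78137269, plus strand: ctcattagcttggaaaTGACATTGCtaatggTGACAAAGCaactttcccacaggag
Gsta3, 118 bases before the start, chr1:21310672-21310712, plus strand: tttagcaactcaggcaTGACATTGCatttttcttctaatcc
Gsta3, 546 bases before the start, chr1:21310244-21310284, plus strand: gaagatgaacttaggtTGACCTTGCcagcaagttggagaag
Gsta3, 945 bases before the start, chr1:21309845-21309885, minus strand, opposite to the gene: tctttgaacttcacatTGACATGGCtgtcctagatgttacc
Gstt1, 357 bases before the start, chr10:75634778-75634818, minus strand: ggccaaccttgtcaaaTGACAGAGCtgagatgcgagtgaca
The same motif letters in Gsta1 and in Gsta3 nearest its start, TGACATTGC, are identical. No copy was found in this window for the other 7 genes, which says only that these letters are not there.

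In control livers the pool of transcripts was dominated by Gstm1 and Gsta3, the main mu and alpha enzymes of mouse liver. Per kb of the main transcript, the level was 1041 ± 104 CPM per kb (SD, n = 4) for Gstm1 and 946 ± 124 for Gsta3, and their ranges overlapped. Gstp1, the pi enzyme, followed at 251 ± 44.1 CPM per kb, close to Gstt1, a theta enzyme that acts on small halogenated molecules, at 212 ± 19.3, and to Gstm2 at 179 ± 40.7, and these neighbours did not differ beyond their spread. Gstk1 had 112 ± 12.0 CPM per kb, and Gsta4, which conjugates the lipid peroxidation product 4-hydroxynonenal, 54.3 ± 6.65. Gsta2 at 22.6 ± 4.52 and Gstm3 at 20.2 ± 4.84 CPM per kb overlapped each other. Gsta1 was last at 0.307 ± 0.119 CPM per kb, with 3 to 10 counts in a library. These levels divide by the whole transcript, although reads that mapped to several places were left out. Gsta1, Gstp1 and Gsta2, with 83.5%, 50.1% and 38.7% of windows shared, may thus be set too low beside genes without shared windows.

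**Figure D1:**
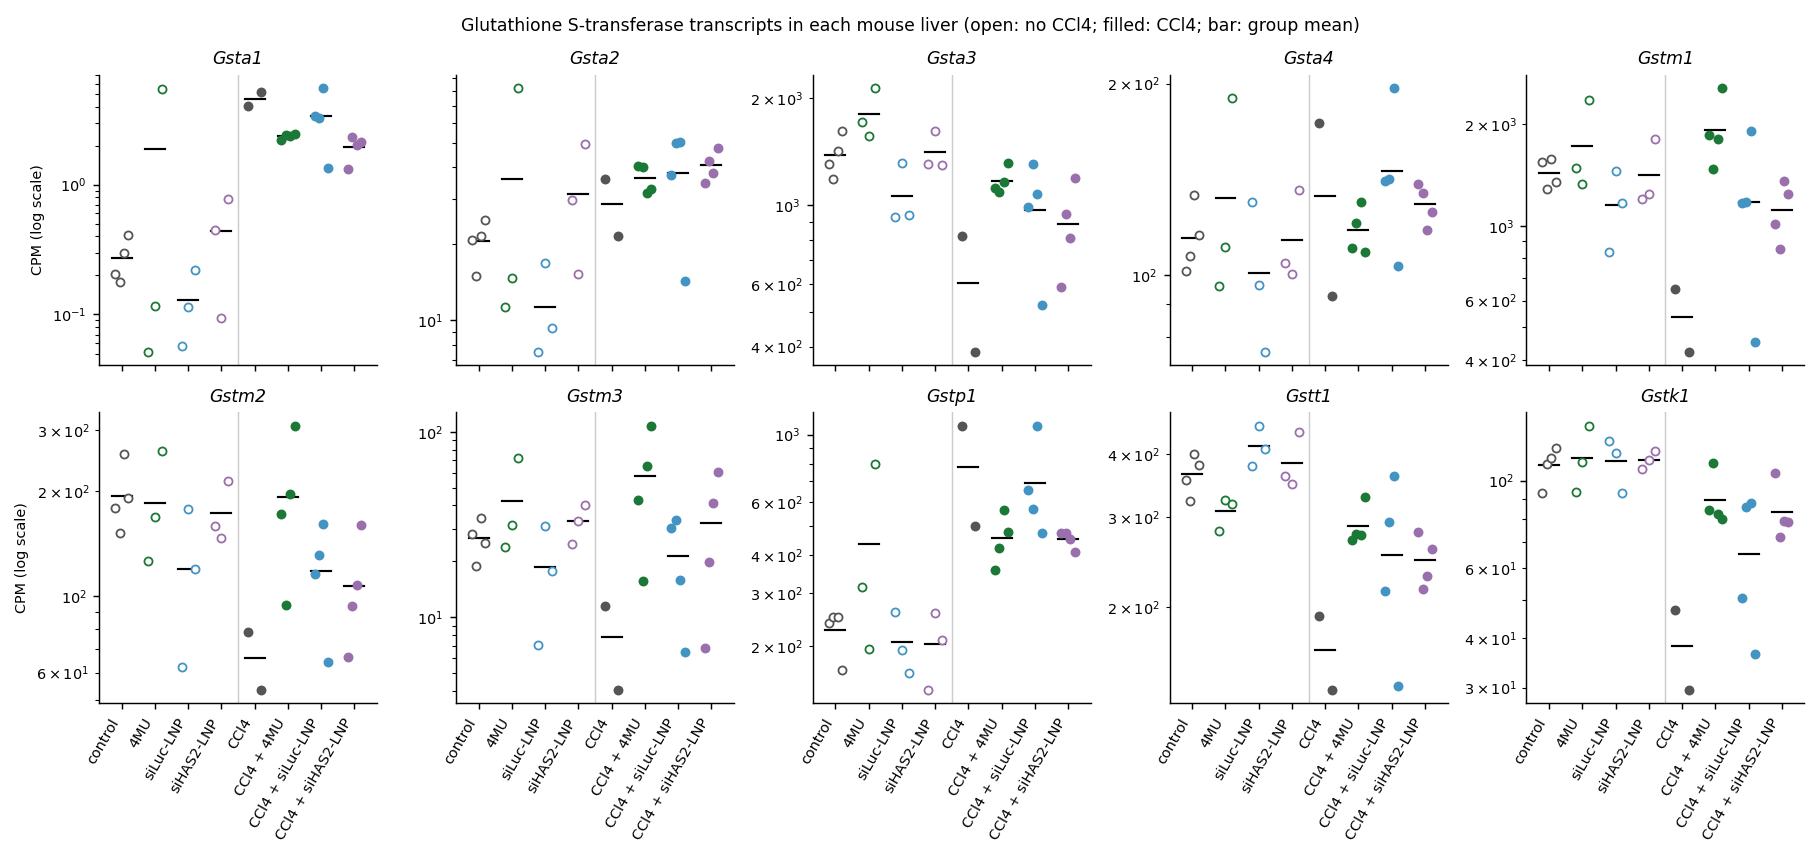
Each panel plots the CPM of 1 gene (log scale, vertical axis) in each of the 27 livers by group (horizontal axis), with open points for livers without CCl4, filled points for livers with CCl4 and a bar at the group mean. Gsta1 was 4.04 and 5.16 CPM in the CCl4 livers against 0.177 to 0.409 in control, and the point at 5.47 in the 4MU panel column is 4MU mouse 3.

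Under CCl4 the family split. Gsta1, an alpha enzyme scarce in healthy liver, rose 16.2-fold and Gstp1 rose 3.46-fold, while the abundant Gstm1 and Gsta3 and also Gstm2, Gstt1 and Gstk1 fell between 2.22-fold and 2.95-fold (control n = 4, CCl4 n = 2). Thus 7 of the 10 genes passed the test, 2 higher and 5 lower, where 34.0% of all genes tested passed, 18.0% higher and 16.1% lower. The median log2 fold change of the 10 genes was -1.18, against -0.02 over all genes tested.

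Gsta1 had 0.204, 0.177, 0.299 and 0.409 CPM in the control livers and 4.04 and 5.16 CPM in the CCl4 livers. The groups lay far apart, and the log2 fold change was 4.01 ± 0.87 (SE, edgeR adjusted p = 0.000980). The edgeR interval (95%) of that log2 fold change, which takes in the spread between mice, was 2.23 to 5.80. On summed counts, 220 in CCl4 against 24 in control, the ratio of CPM was 16.4, with an exact counting interval (95%) of 10.8 to 26.2. This counting interval covers counting error only and leaves out the spread between mice. Gstp1 had 239, 251, 250 and 168 CPM in control and 1070 and 499 CPM under CCl4. Both CCl4 livers were above every control, with a log2 fold change of 1.79 ± 0.37 (SE, edgeR adjusted p = 0.000732), but they differed from each other by more than the whole range of the controls. Without CCl4 mouse 1 the value for Gstp1 was 1.15 and the edgeR adjusted p was 0.0555.

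Gstm1 had 1542, 1281, 1573 and 1349 CPM in control and 651 and 422 CPM under CCl4. Gsta3 had 1311, 1190, 1419 and 1617 CPM against 820 and 386 CPM. The groups did not overlap for either gene, and in both the CCl4 mouse 2 liver was the lower of the pair. The log2 fold change was -1.42 ± 0.38 for Gstm1 (SE, edgeR adjusted p = 0.00613) and -1.20 ± 0.32 for Gsta3 (edgeR adjusted p = 0.00511). Gstm2 fell by 1.56 ± 0.45 on the log2 scale (SE, edgeR adjusted p = 0.00957), from 152 to 256 CPM in control to 78.5 and 53.4 CPM.

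Gstk1 and Gstt1, which have no shared windows, also fell. Gstk1 had 93.1, 110, 114 and 121 CPM in control and 47.0 and 29.6 CPM under CCl4, a log2 fold change of -1.52 ± 0.28 (SE, edgeR adjusted p = 0.000216). Gstt1 had 355, 323, 400 and 380 CPM in control and 191 and 137 CPM under CCl4, a log2 fold change of -1.15 ± 0.25 (SE, edgeR adjusted p = 0.000918). In each, CCl4 mouse 2 was again the lower of the pair, and no CCl4 liver reached the control range. Gstm3 (18.8 to 34.1 CPM in control, 11.5 and 4.03 under CCl4) had a log2 fold change of -1.78 with an interval (95%) of -3.41 to -0.16 and an edgeR adjusted p of 0.0825. For Gsta4, which ran from 75.7 to 197 CPM over all 27 livers and passed in no comparison, and for Gsta2 the ranges of the groups overlapped, with log2 fold changes of 0.22 (interval -0.32 to 0.76) and 0.48 (interval -0.64 to 1.61).

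Without CCl4 mouse 2, which leaves 1 CCl4 liver, 3 of the 10 genes passed, Gsta1 and Gstp1 higher and Gstk1 lower, and the log2 fold changes of the 4 other genes that had fallen were -1.29 for Gstm2, -1.12 for Gstm1, -0.91 for Gstt1 and -0.73 for Gsta3. Scaling also bears on the split: with plain library totals in place of TMM the median gene was 0.39 higher on the log2 scale under CCl4, all genes passed 4936 higher to 915 lower (2537 to 2268 with TMM), and 3 of the 10 genes passed higher and 5 lower.

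Markers of cell types were read beside the 10 genes, of which 5 fell while Gsta1 and Gstp1 rose. Of 6 hepatocyte markers 4 fell, and their summed level was 157128 to 193171 CPM in control and 69276 to 122212 CPM under CCl4. Alb itself had a log2 fold change of -0.90 ± 0.26 (SE, edgeR adjusted p = 0.0105). Of the 6 markers of pericentral hepatocytes 5 fell (6369 to 9904 CPM summed in control, 452 to 792 under CCl4), and Glul, the glutamine synthetase of the cells next to the central vein, fell by 3.73 on the log2 scale. Of the 6 periportal markers 1 fell, with overlapping sums (6595 to 10758 and 6000 to 9820 CPM). All 5 proliferation markers rose (6.38 to 10.8 CPM summed against 289 to 552), as did all 5 monocyte and macrophage markers (3.72 to 7.56 against 89.2 to 93.6) and 5 of 6 stellate cell and myofibroblast markers (41.6 to 75.9 against 403 to 656). None of the defining markers was at 0 in any library. The part of these shifts in the values of the transferases was not tested.

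**Figure D2:**
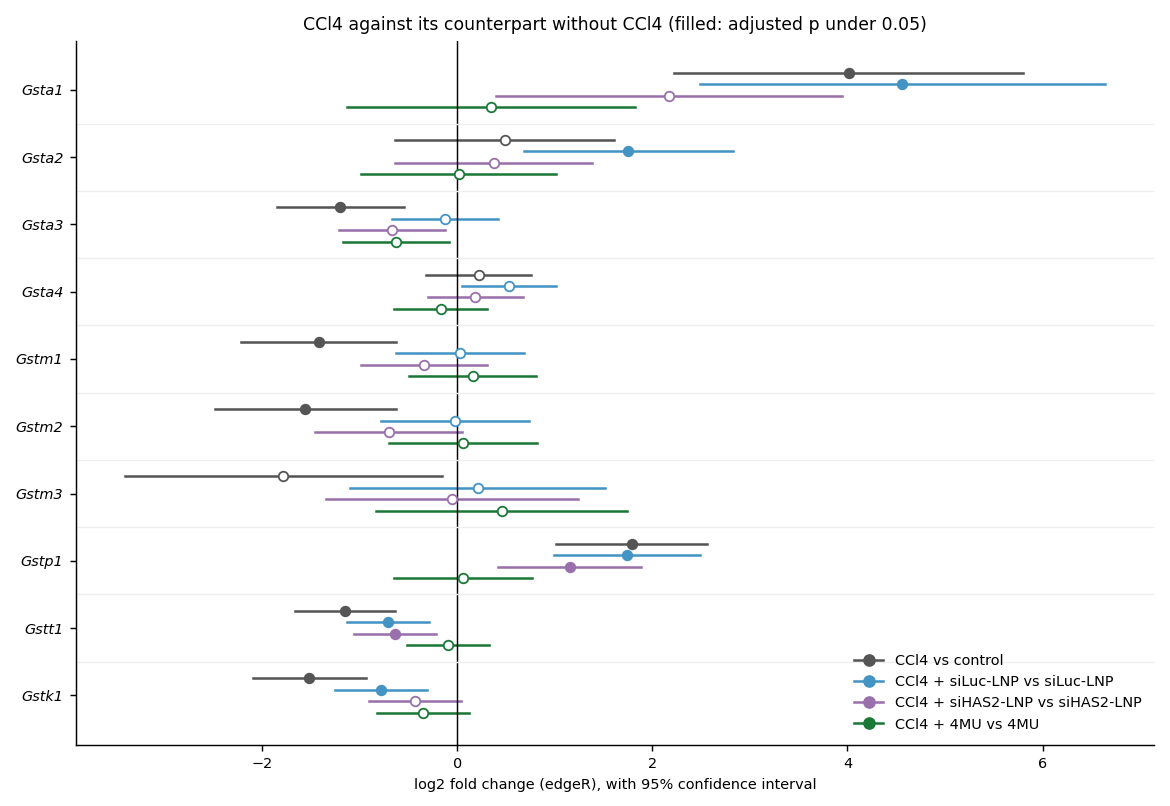
For each gene the horizontal axis gives the log2 fold change of CCl4 against the matching livers without CCl4, with its 95% confidence interval, in 4 treatment arms (colours), and filled points have an adjusted p under 0.05. Gstp1 lies at 1.79, 1.74 and 1.15 in the untreated, siLuc-LNP and siHAS2-LNP arms and at 0.06 in the 4MU arm.

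The same question was asked within each treatment, in mice other than those above. In the siLuc-LNP arm, CCl4 raised Gsta1, Gsta2 and Gstp1 and lowered Gstt1 and Gstk1, 5 of the 10 genes (3 higher, 2 lower), where 24.2% of all genes passed, 13.0% higher and 11.2% lower. Gsta1 had 0.0572, 0.114 and 0.220 CPM in siLuc-LNP livers, 1 to 5 counts each, and 3.41, 3.24, 5.58 and 1.35 CPM in CCl4 + siLuc-LNP livers, a log2 fold change of 4.56 ± 1.01 (SE, edgeR adjusted p = 0.00180). The ratio on summed counts, 303 against 8, was 22.6 with an exact counting interval of 11.3 to 52.8. Gstp1 went from 260, 195 and 164 CPM to 655, 566, 1065 and 472 CPM, a log2 fold change of 1.74 ± 0.36 (SE, edgeR adjusted p = 0.00105), with no overlap.

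Gsta2, another alpha enzyme, rose in this arm, from 7.49, 16.9 and 9.36 CPM to 37.4, 49.7, 50.2 and 14.3 CPM. CCl4 + siLuc-LNP mouse 4 lay within the range of the livers without CCl4, and the log2 fold change was 1.75 ± 0.52 (SE, edgeR adjusted p = 0.0156). The call was lost without siLuc-LNP mouse 1 or mouse 3. Gstk1 fell by 0.78 and Gstt1 by 0.71 on the log2 scale (edgeR adjusted p = 0.0145 and 0.0131), and neither passed when only the compared groups were fitted. Gstt1 was also lost without siLuc-LNP mouse 2, and Gstk1 without siLuc-LNP mouse 1 or CCl4 + siLuc-LNP mouse 1 or mouse 4. Gstm1, Gstm2 and Gsta3, which fell in the untreated arm, had log2 fold changes of 0.03, -0.02 and -0.13 here, with intervals of -0.62 to 0.68, -0.78 to 0.74 and -0.67 to 0.42.

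In the siHAS2-LNP arm Gstp1 rose and Gstt1 fell, 2 of the 10 genes (1 higher, 1 lower), where 12.8% of all genes passed, 7.74% higher and 5.09% lower. Gstp1 had 143, 258 and 209 CPM without CCl4 and 473, 471, 453 and 410 CPM with it, a log2 fold change of 1.15 ± 0.35 (SE, edgeR adjusted p = 0.0321). Gstt1 had 363, 349 and 442 CPM against 280, 217, 230 and 260 CPM, and fell by 0.64 ± 0.21 on the log2 scale (SE, edgeR adjusted p = 0.0402). The groups did not overlap for either gene, yet both calls were close to the threshold, and neither gene passed without siHAS2-LNP mouse 1 or mouse 3 or without CCl4 + siHAS2-LNP mouse 2 or mouse 3. Gsta1 had 0.444, 0.0943 and 0.777 CPM against 1.33, 2.34, 2.01 and 2.14 CPM, a log2 fold change of 2.17 with an edgeR adjusted p of 0.0975.

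In the 4MU arm none of the 10 genes passed with edgeR (1, Gsta3, at an unadjusted p under 0.05), none with DESeq2 and 2 with limma-voom, where 23.7% of all genes passed. The log2 fold changes ran from -0.63 for Gsta3 (interval -1.17 to -0.09) to 0.46 for Gstm3. For Gsta1 and Gsta2 the count turned on 4MU mouse 3. Gsta1 had 0.0512, 0.117 and 5.47 CPM in 4MU livers and 2.19, 2.39, 2.37 and 2.46 CPM in CCl4 + 4MU livers, so that mouse 3 alone lay above all 4 of the latter. Gsta2 (11.3, 14.6 and 82.2 CPM against 40.6, 40.2, 31.8 and 32.7) and Gstp1 (315, 196 and 799 CPM against 356, 421, 563 and 478) had the same order. Without 4MU mouse 3, 2 of the 10 genes passed: Gsta1 at a log2 fold change of 4.66 (edgeR adjusted p = 6.96e-05) and Gsta2 at 1.48 (edgeR adjusted p = 0.0202), while Gstp1 was at 0.83 (edgeR adjusted p = 0.0858).

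Among livers with CCl4, those of mice given 4MU had more of the 5 genes that CCl4 lowered, and of Gstm3, which had not passed against control. Against CCl4 alone (n = 2), the CCl4 + 4MU livers (n = 4) had 3.58-fold more Gstm1, 2.92-fold more Gstm2, 7.53-fold more Gstm3, 2.33-fold more Gstk1, 1.94-fold more Gsta3 and 1.76-fold more Gstt1. These 6 of the 10 genes rose and none fell, where 18.3% of all genes passed, 8.28% higher. The median log2 fold change was 0.89 over the 10 genes and 0.04 over all genes tested. Since the CCl4 livers are the reference here and the treated side of the comparison with control, a low CCl4 liver moves both.

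Gstm1 had 1852, 1469, 1801 and 2563 CPM in CCl4 + 4MU livers, beside 651 and 422 CPM under CCl4 alone. All 4 livers were above both CCl4 livers, and 3 of them above every control (1281 to 1573 CPM). The log2 fold change was 1.84 ± 0.39 (SE, edgeR adjusted p = 0.00317). Gstm3 had 43.0, 15.7, 65.6 and 108 CPM beside 11.5 and 4.03 CPM, a log2 fold change of 2.91 ± 0.83 (SE, edgeR adjusted p = 0.0178). Gstm2 had 172, 93.8, 196 and 309 CPM beside 78.5 and 53.4 CPM, a log2 fold change of 1.55 ± 0.45 (SE, edgeR adjusted p = 0.0195). In these 3 mu genes CCl4 + 4MU mouse 4 was highest and mouse 2 lowest.

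Gstk1 had 84.2, 111, 82.4 and 80.1 CPM beside 47.0 and 29.6 CPM under CCl4 alone (log2 fold change 1.22 ± 0.28, SE, edgeR adjusted p = 0.00479). Gsta3 had 1116, 1088, 1163 and 1319 CPM beside 820 and 386 CPM (log2 fold change 0.96 ± 0.31, edgeR adjusted p = 0.0349), and Gstt1 had 271, 279, 277 and 329 CPM beside 191 and 137 CPM (log2 fold change 0.81 ± 0.24, edgeR adjusted p = 0.0226). The groups did not overlap for any of the 3. Gsta1 and Gstp1, which CCl4 raised, had log2 fold changes of -0.97 (interval -2.52 to 0.59) and -0.79 (interval -1.57 to -0.0036), with edgeR adjusted p of 0.381 and 0.146, so neither passed. With plain library totals in place of TMM Gstp1 did pass, at -1.08 (edgeR adjusted p = 0.0227). Over 8 alternative settings with every mouse kept, Gstp1 stayed short of the threshold in 6 and Gsta1 in 7, and both passed in the rest.

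Without CCl4 mouse 2, which leaves 1 reference liver, none of the 10 genes passed, with log2 fold changes of 2.31 for Gstm3, 1.53 for Gstm1, 1.27 for Gstm2, 0.90 for Gstk1, 0.56 for Gstt1 and 0.49 for Gsta3, and without CCl4 + 4MU mouse 4 only Gstm1 (log2 fold change 1.67) and Gstk1 (1.27) did. The call of Gsta3 was also lost without CCl4 + 4MU mouse 1 or mouse 2. It was lost as well with plain library totals, with a replicate block and when only the compared groups were fitted. That of Gstm3 was lost with limma-voom and with the block. The liver of CCl4 + 4MU mouse 4 stood apart in another way: its Krt19, a keratin of bile duct epithelium, was 92.6 CPM and its Epcam 19.6 CPM, against at most 6.14 and 2.39 CPM in any other library, although the summed level of the 6 cholangiocyte markers was 109 to 269 CPM in its group and 241 to 298 CPM under CCl4. Of the 6 hepatocyte markers 3 rose with 4MU (141812 to 169986 CPM summed), Alb by 0.82 on the log2 scale, and of the 6 pericentral markers 3 rose (1887 to 2771 CPM summed), but Glul did not pass (log2 fold change -0.17, edgeR adjusted p = 0.649). All 5 proliferation markers fell, to 44.4 to 197 CPM summed. What these had to do with the transferase values was not tested.

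**Figure D3:**
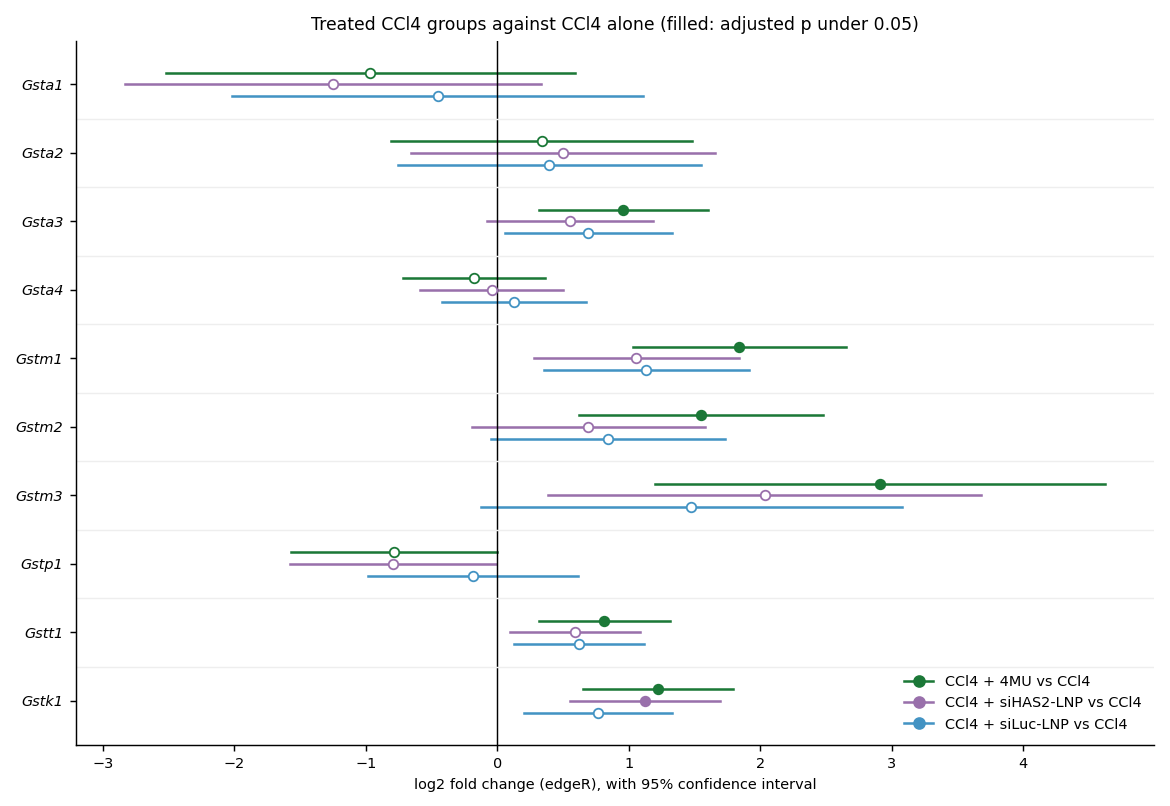
For each gene the horizontal axis gives the log2 fold change of the treated CCl4 livers against the 2 livers with CCl4 alone, with its 95% confidence interval, for 4MU, siHAS2-LNP and siLuc-LNP (colours), and filled points have an adjusted p under 0.05. The 3 comparisons share the same 2 reference livers, and Gstm1 lies at 1.84, 1.06 and 1.13.

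Against the same CCl4 livers, 1 of the 10 genes, Gstk1, was higher with siHAS2-LNP, where 14.4% of all genes passed, 7.11% higher. That count is near the share of all genes, and these CCl4 livers had received no nanoparticle. Against CCl4 + siLuc-LNP, which shares the carrier, Gstk1 differed by 0.36 on the log2 scale (edgeR adjusted p = 0.417). For CCl4 + siLuc-LNP against CCl4 its value was 0.77 (edgeR adjusted p = 0.191). Gstk1 had 104, 72.2, 78.8 and 78.5 CPM in CCl4 + siHAS2-LNP livers beside 47.0 and 29.6 CPM, a log2 fold change of 1.13 ± 0.28 (SE, edgeR adjusted p = 0.00956), and without CCl4 mouse 2 it did not pass. Gstm1 had 1009, 856, 1357 and 1245 CPM, above both CCl4 livers, with a log2 fold change of 1.06 and an edgeR adjusted p of 0.0587, and Gstm3 (6.77, 19.8, 41.5 and 60.4 CPM) had 2.03 and 0.0866. The median over the 10 genes was 0.57, against 0.02 over all genes.

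With the nanoparticles against luciferase none of the 10 genes passed against CCl4 alone with edgeR (4 at an unadjusted p under 0.05), DESeq2 or limma-voom, where 0.248% of all genes passed. The mean differences were not small, with a median log2 fold change of 0.66, but CCl4 + siLuc-LNP mouse 4 lay among the CCl4 livers in Gstm1 (453 CPM, against 1170, 1176 and 1909 in mice 1 to 3), Gstt1 (140 CPM, against 215, 294 and 363) and Gstk1 (36.5 CPM, against 50.4, 85.6 and 87.8). Without that mouse 4 of the 10 genes passed, all higher than in CCl4 alone. Its Mki67, a proliferation marker, was 207 CPM, against 63.3 to 112 CPM in mice 1 to 3 and 102 and 209 CPM in the CCl4 livers.

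The siRNA against hyaluronan synthase 2 was compared with that against luciferase, which shares its carrier. Under CCl4 none of the 10 genes passed with edgeR, DESeq2 or limma-voom (none at an unadjusted p under 0.05 in edgeR), where 1.09% of all genes passed. The estimate furthest below 0 was for Gsta1 at -0.79 (interval -2.16 to 0.57), and Gstp1, at -0.61 (interval -1.27 to 0.05), had 473, 471, 453 and 410 CPM against 655, 566, 1065 and 472 CPM. Gstm1 had a difference of -0.08 with an interval of -0.68 to 0.53, so a change of up to about that size in either direction could not be told from 0 with 4 mice a group.

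In livers without CCl4, no treatment moved any of the 10 genes past the threshold. With 4MU, none passed with edgeR (2 at an unadjusted p under 0.05), DESeq2 or limma-voom, where 0.00709% of all genes passed. With siLuc-LNP against control it was none with each of the 3 tools (none at an unadjusted p under 0.05 in edgeR), where 0.213% of all genes passed. With siHAS2-LNP against siLuc-LNP it was again none with each tool (1 at an unadjusted p under 0.05 in edgeR, Gsta2), where 0.0425% of all genes passed. Gsta2 had 29.8, 15.2 and 49.3 CPM in siHAS2-LNP livers and 7.49, 16.9 and 9.36 CPM in siLuc-LNP livers, a log2 fold change of 1.48 with an edgeR adjusted p of 0.379.

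Within the 4MU group, however, mouse 3 stood apart from the rest. Of the 13 livers without CCl4 it had the highest CPM for 9 of the 10 genes, all but Gstt1, and it was highest for 9.14% of all genes tested. Gsta1 was 5.47 CPM, 28.7 times the median of the other 12 livers, Gsta2 was 82.2 CPM (5.13 times), Gstp1 799 CPM (3.56 times) and Gstm3 71.9 CPM (2.70 times). The abundant Gstm1 (2359 CPM) and Gsta3 (2143 CPM) were 1.76 and 1.63 times that median.

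Some genes of the lists around the family were also high in that liver, and others were not. Of 19 genes for conjugate export and the mercapturate steps, none was above all the other 12 livers and 2 were below all. Of 6 membrane-bound transferase genes, none was above and 1 was below. Of 16 regulators, 4 were above and 1 was below, and Nfe2l2 was at 1.04 times the median. Of 12 genes of glutathione synthesis and reduction 5 were above all the other 12 livers, among them Gclc, the catalytic subunit of the limiting enzyme of glutathione synthesis, at 851 CPM (2.94 times their median), and Txnrd1, thioredoxin reductase, at 258 CPM (2.67 times). Srxn1, sulfiredoxin, was 172 CPM (4.05 times) and Nqo1, a quinone reductase, 24.9 CPM (1.83 times). Srxn1 and Nqo1 were among 5 of 8 readouts of the regulators that lay above all the other 12 livers. The rest were Hmox1 (1.91 times), Cyp1a1 (2.61 times) and Cyp3a11 (1.65 times), the last 2 known as readouts of regulators other than Nrf2. Of the 16 other glutathione S-transferase genes 8 were above all other livers and none below, with Gsta5 at 3.95 CPM and Gsta13 at 4.86 CPM. Among markers that CCl4 moved, that liver had Glul at 637 CPM (37.5 to 1098 over all libraries) and Mki67 at 0.912 CPM (0.912 to 209). Its Gsta1 (5.47 CPM) and Gstp1 (799 CPM), genes that CCl4 raised, were high. What set this liver apart was not tested. This mouse was singled out after its values were seen, and these values are a description of 1 liver.

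**Figure D4:**
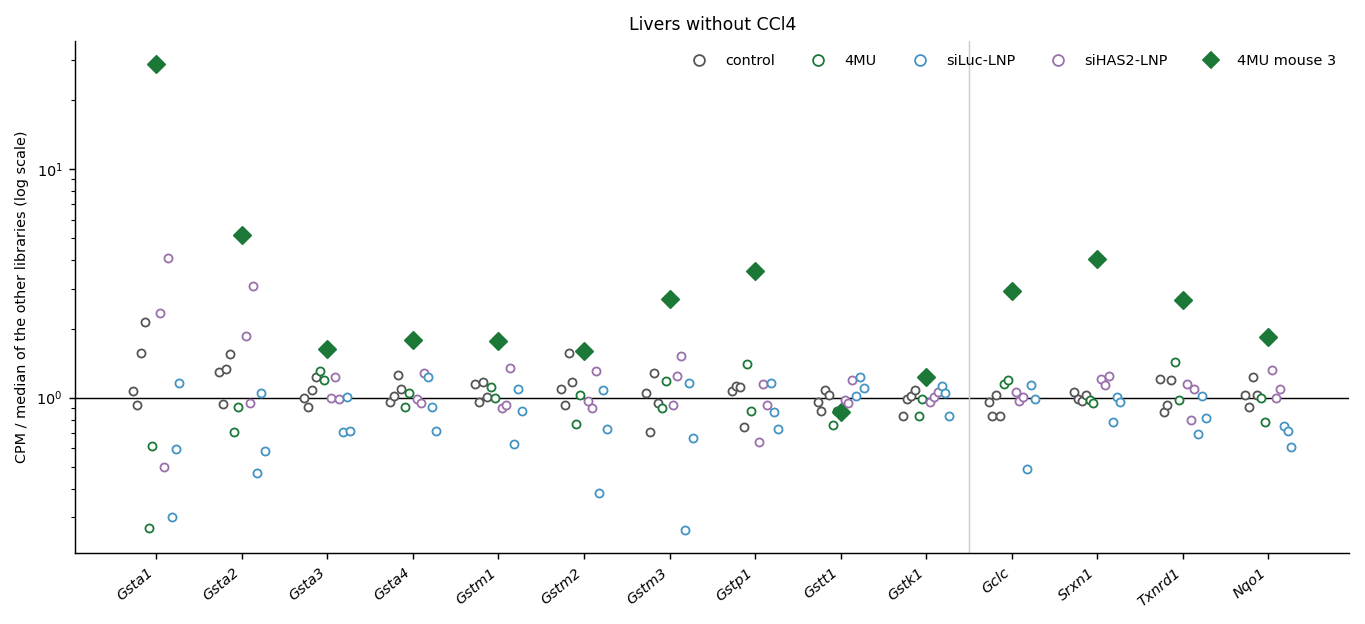
For the 10 genes and for Gclc, Srxn1, Txnrd1 and Nqo1, the vertical axis (log scale) gives the CPM of each of the 13 livers without CCl4 divided by the median of the 12 other than 4MU mouse 3, which is drawn as a diamond. The diamond is at 28.7 for Gsta1 and above all circles in every column but that of Gstt1.

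Whether 4MU changed the response to CCl4 was asked with an interaction term, the CCl4 effect with 4MU minus that without it. Gstp1 differed by -1.73 ± 0.51 (SE, edgeR adjusted p = 0.0461) and Gstt1 by 1.06 ± 0.32 (edgeR adjusted p = 0.0497). These were 2 of the 10 genes, 1 higher and 1 lower, where 5.67% of all genes passed, 2.72% higher and 2.95% lower. The estimates for Gsta1 (-3.67, edgeR adjusted p = 0.0536), Gstk1 (1.16, edgeR adjusted p = 0.0528) and Gstm1 (1.58, edgeR adjusted p = 0.0560) lay just outside the threshold. All 5 were near it. Without 4MU mouse 3 none passed, Gstp1 was at -0.96 and Gsta1 at 0.64, and the count was also 0 without any 1 of the 4 control mice, CCl4 mouse 2 or CCl4 + 4MU mouse 1, 2 or 4, and with a replicate block. For siHAS2-LNP in place of siLuc-LNP the interaction passed for none of the 10 genes with edgeR, DESeq2 or limma-voom (none at an unadjusted p under 0.05 in edgeR), where 0.0354% of all genes passed.

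Seen as a pool, the 10 genes are described here by their summed level per kb and by its make-up. The summed level was 2541 to 3084 CPM per kb in control, 1357 and 2582 under CCl4, and 2751 to 4018 in CCl4 + 4MU. Gstp1 made up 9.33%, 10.9%, 8.95% and 6.41% of that sum in the control livers and 45.8% and 40.7% in the CCl4 livers, which did not overlap. The share was 13.0% to 18.9% in CCl4 + 4MU, 16.7% to 24.9% in CCl4 + siHAS2-LNP and 21.6% to 35.8% in CCl4 + siLuc-LNP, all above the controls and below the CCl4 livers. Among the livers without CCl4 it was 6.37% to 14.3% in the nanoparticle groups and 11.4%, 7.75% and 18.2% with 4MU, mouse 3 again highest. Gstm1 went the other way, from 33.8% to 39.4% in control to 18.3% and 22.5% under CCl4, and was 38.7% to 46.2% in CCl4 + 4MU. These shares were not tested, and Gstp1 may lose reads to Gstp2 by a like fraction in each library, so its share may be too low throughout.

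**Figure D5:**
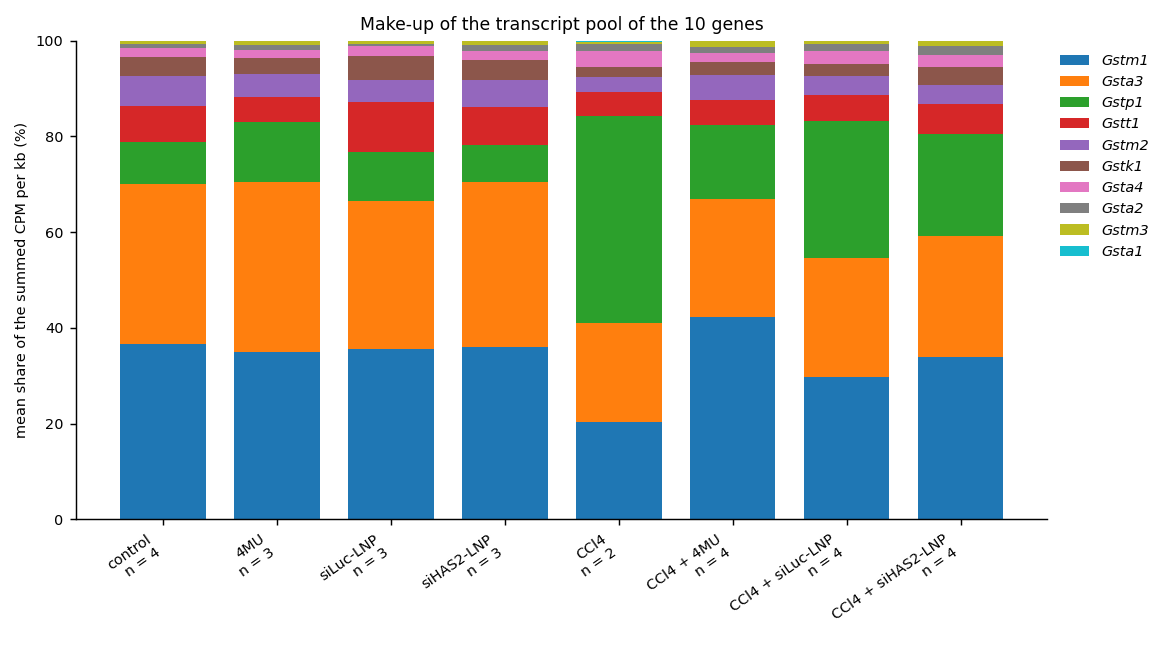
Each bar splits the summed CPM per kb of the 10 genes into the mean share (percent, vertical axis) of each gene in the libraries of a group (horizontal axis). Gstp1 fills a mean of 43.2% of the CCl4 bar and 8.90% of the control bar, and Gsta1 is too small to be seen in any bar.

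The counts of the lists that follow are to be read beside the shares of all genes tested that passed, which were 18.0% higher and 16.1% lower for CCl4 against control, 8.28% higher of 18.3% in all for CCl4 + 4MU against CCl4, and 7.11% higher of 14.4% in all for CCl4 + siHAS2-LNP against CCl4. With lists this small, nothing particular to a list is read from them. Of 16 other glutathione S-transferase genes 15 were tested, and under CCl4 against control 5 rose, 5 fell and 5 did not pass, with a median log2 fold change of -0.42. The increases were led by Gsta13 (3.95 ± 0.74, SE, edgeR adjusted p = 0.000242) and Gsta5 (3.16 ± 0.89, edgeR adjusted p = 0.00787), the genes whose sequences overlap those of Gsta1 and Gsta2, and by Hpgds, a prostaglandin synthase of the sigma class (1.65, edgeR adjusted p = 0.000883). Gstm6 (-2.36 ± 0.34, SE, edgeR adjusted p = 8.45e-06), Gstt3 (-1.74) and Gsto2 (-1.29) led the decreases. With 4MU against CCl4 alone, 4 of the 15 rose, among them Gstm6 (1.28), Gstt3 (0.99) and Gstm7 (0.72), and Gstcd fell by 1.36 on the log2 scale. With siHAS2-LNP Gstz1 rose (0.61) and Gstcd fell by 1.25. Of the 4 membrane-bound (MAPEG) genes tested out of 6, Mgst1, the microsomal transferase of hepatocytes, fell under CCl4 (-1.26) and rose against CCl4 alone with 4MU (0.76) and siHAS2-LNP (0.69), and Alox5ap, which serves leukotriene synthesis in myeloid cells, rose under CCl4 (1.19). No gene of these lists passed for 4MU against control.

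Of 11 genes of glutathione synthesis and reduction tested, 1 rose and 4 fell under CCl4, with Gpx1, a glutathione peroxidase, at -1.31, Glrx2 at -0.86, Gclm at -0.67 and Gss at 0.47. With 4MU against CCl4 alone 2 rose (Gpx1, 1.23, and Cth, which makes cysteine, 1.22) and Gss fell by 0.45 on the log2 scale. With siHAS2-LNP 2 rose (Cth, 1.12, and Gclm, 0.55). Of 18 genes for conjugate export and the mercapturate steps, 4 rose and 4 fell under CCl4, with Dpep1 (1.19), the exporters Abcg2 (0.75) and Abcc2 (0.72) higher and Nat8f1 (-1.61), Nat8f2 (-1.24) and Abcc6 (-0.96) lower. With 4MU 5 of the 18 rose, led by Ggt6 (1.44), Nat8f1 (1.26) and Ggt5 (1.11), and 2 fell, among them Abcg2 (-0.81). With siHAS2-LNP 3 rose (Nat8, 1.57, Ggt6, 1.16, and Abcc6, 0.99) and Abcg2 fell by 0.60 on the log2 scale.

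Among 16 regulators of these genes, 1 rose and 3 fell under CCl4, where 34.0% of all genes passed in either direction. Nfe2l2, which encodes Nrf2, rose (0.74 ± 0.16, SE, edgeR adjusted p = 0.000856), while Nr1i3 fell from 33.6 to 63.4 CPM in control to 12.3 and 8.10 CPM (-2.31 ± 0.43, SE, edgeR adjusted p = 0.000217), as did Cebpa (-1.13) and Ahr (-0.75). Of 8 readouts of those regulators Nqo1 (-0.99) and Cyp1a2 (-2.08) fell and Cyp1a1 (1.54) rose. Of the Nrf2 readouts besides Nqo1, Srxn1 had a log2 fold change of 0.41 and Hmox1 of 0.64, and neither passed (edgeR adjusted p = 0.365 and 0.112). With 4MU against CCl4 alone 5 regulators rose, led by Nr1i3 (1.86), Cebpb (1.32) and Nr1i2 (1.02), and 2 readouts, Cyp1a2 (1.50) and Nqo1 (1.24). With siHAS2-LNP Nr1i3 (1.50), Ahr (1.32), Mafg (0.88), Cyp1a2 (1.46) and Nqo1 (1.10) rose. These comparisons share the CCl4 livers.

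The 10 genes did not vary as 1 block over the 27 libraries. As a description with no test, the Spearman rho of CPM was 0.84 for Gstm1 and Gstm2, 0.81 for Gsta1 and Gstp1, 0.78 for Gstt1 and Gstk1 and 0.76 for Gsta1 and Gsta2. After the group means were taken out on the log2 scale, Pearson's r was 0.90 for Gstm2 and Gstm3 and 0.88 for Gsta1 and Gsta2. Over the same libraries, the 3 genes most like each member among 12717 protein-coding genes were found by Spearman rho. Gstk1 was nearest to S100a1 (0.96), Macrod1 (0.94) and Cdo1 (0.94), and Gstt1 to Ces2a (0.93), Urah (0.91) and Serpinc1 (0.90). Gstp1 was nearest to Gstp2 (0.91), with which it shares sequence, Ddit4l (0.87) and Bax (0.84), and Gsta1 to Gsta13 (0.89), likewise alike in sequence, Upp1 (0.86) and Inhbb (0.84).

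The alpha genes Gsta2, Gsta3 and Gsta4 had Cryl1 (0.85), Gsta5 (0.79) and Sqor (0.78), then Creg1 (0.86), Acsm1 (0.84) and Noa1 (0.84), and Mrpl28 (0.73), Cox5a (0.73) and Anapc11 (0.72) as their nearest genes. For the mu genes these were Cebpb (0.80), Abhd4 (0.75) and Lrrc28 (0.75) with Gstm1, H2-Q10 (0.79), Tkt (0.77) and Rnd2 (0.76) with Gstm2, and Degs1l (0.75), Nmnat1 (0.70) and Slc25a51 (0.70) with Gstm3. The libraries share their groups, so such values follow any difference between groups that both genes had.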

How the data were processed

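RNA from the livers of 27 mice in 8 groups was measured. The deposited table holds whole-number counts of fragments for each gene, which the authors obtained with Trimmomatic 0.39, HISAT2 (version not given in the sources used here), the GRCm39 genome with Ensembl annotation and featureCounts, leaving out reads with several alignments. Close copies such as Gsta1, Gstp1, Gsta2 and the Gstm genes lose counts in this way. The strand setting of the counting is not given in the sources used here, so overlapping antisense genes may share reads.

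The 14114 of 55414 genes whose mean count was 10 or more were tested with edgeR 4.0.16 (R 4.3.3), TMM scaling, 1 fit of all 8 groups without covariates and the quasi-likelihood test, adjusted by Benjamini-Hochberg, in 13 comparisons. DESeq2 1.42.0 and limma 3.58.1 were alternatives, with other scalings and filters, a replicate block, the compared groups only, a minimum log2 fold change of 1 and each mouse left out. Python 3.11.15 (numpy 2.4.6, scipy 1.17.1, pandas 2.3.3, matplotlib 3.10.9) made the tables and figures. The fit was tested on simulated data. Positions and sequences are from GRCm39 and GENCODE vM39, with lengths of the main transcript. The members, lists and tests were chosen with earlier results of these data known. The text names all members, up to 3 genes of a list in each direction, the 3 genes most like each member and the first marker of a cell type, and single mice, Krt19, Epcam and other genes of 4MU mouse 3 were singled out after their values were seen. Each library is 1 mouse, no pair of libraries of the same group agreed within counting noise, and intervals on counts cover counting error only.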

Additional observations from a re-analysis of the deposited data

Results flagged for a closer look

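In 3 of the 40 sets of 4 libraries examined (10 genes in the 4 groups of 4), 1 library lay apart by a gap test at the 95% level, which chance alone gives in about 1 of 20 sets. Gstp1 in control mouse 4 was 168 CPM, below 239 to 251 CPM in the other 3. Gstt1 in CCl4 + 4MU mouse 4 was 329 CPM, above 271 to 279 CPM, and this is the liver with high Krt19. Gstk1 in CCl4 + 4MU mouse 2 was 111 CPM, above 80.1 to 84.2 CPM.

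The CCl4 effect differed between mice with and without 4MU for Gstp1, by -1.73 on the log2 scale, and for Gstt1, by 1.06, both by the interaction term of edgeR. Both calls were lost without 4MU mouse 3 and without most other single mice, and the cause was not tested.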

How the results depend on the processing

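No value of a gene that had passed changed direction under any alternative. Of the values of single genes recomputed, 565 stayed on the same side of the threshold in the same direction, 72 no longer passed, 24 newly passed and 17 changed direction. With limma-voom the count of the 10 genes that passed was 2 for CCl4 + 4MU against 4MU (0 with edgeR) and 5 for CCl4 + siHAS2-LNP against siHAS2-LNP (2 with edgeR). With DESeq2 it was 2 for CCl4 + siHAS2-LNP against CCl4 (1 with edgeR) and 6 for the interaction of 4MU and CCl4 (2 with edgeR), and with DESeq2 size factors in edgeR the latter was 1. Without a filter on low counts it was 5 for the siHAS2-LNP arm, 4 for CCl4 + siHAS2-LNP against CCl4, 2 for CCl4 + siLuc-LNP against CCl4, 2 for 4MU against control, 1 for siHAS2-LNP against siLuc-LNP, 7 for the 4MU interaction and 1 for the siHAS2-LNP interaction, and with the filter of edgeR it was 1 for the 4MU interaction. Fits of the compared groups alone gave 1 in the 4MU arm, 3 in the siLuc-LNP arm, 4 in the siHAS2-LNP arm and 3 for CCl4 + siHAS2-LNP against CCl4. A minimum log2 fold change of 1 left 3 in the siLuc-LNP arm and 1 in the siHAS2-LNP arm. The cause was not tested.

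With the replicate number as a block, 1 gene passed in the siHAS2-LNP arm, 0 in the 4MU interaction and 4 for CCl4 + 4MU against CCl4. Libraries of the same number did not deviate together (Pearson's r -0.31 to 0.27 over 83 pairs, and 4 of 27 libraries correlated best with their own number), so the numbers were not taken as pairs.

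With each mouse left out in turn, the count ran from 3 (without CCl4 mouse 2) to 7 for CCl4 against control, 0 to 2 in the 4MU arm (2 without 4MU mouse 3), 4 to 5 in the siLuc-LNP arm, 0 to 2 in the siHAS2-LNP arm, 0 (without CCl4 mouse 2) to 6 for CCl4 + 4MU against CCl4, 0 to 2 for CCl4 + siHAS2-LNP against CCl4, 0 to 4 for CCl4 + siLuc-LNP against CCl4 (4 without CCl4 + siLuc-LNP mouse 4) and 0 to 3 for the 4MU interaction. Where a single CCl4 mouse was left, it was assumed to vary like the other groups. The log2 fold changes whose direction turned were all of genes that had not passed. For Gsta4 they ran from -0.29 to 0.62 (CCl4 against control), from -0.59 to 0.33 (CCl4 + 4MU against CCl4) and from -0.45 to 0.47 (CCl4 + siHAS2-LNP against CCl4, 0.0126 with limma-voom). For CCl4 + 4MU against 4MU they ran from -0.23 to 4.66 (Gsta1), from -0.41 to 1.48 (Gsta2) and from -0.29 to 0.83 (Gstp1). For 4MU against control they ran from -1.61 to 3.28 (Gsta1) and from -0.66 to 1.23 (Gsta2), for the 4MU interaction from -4.25 to 0.64 (Gsta1), and for CCl4 + 4MU against CCl4 from -0.019 to 0.74 (Gsta2).

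Scaling moved the balance of all genes. With plain library totals the median log2 fold change was -0.30 for CCl4 + 4MU against CCl4, with 488 genes higher and 3220 lower (1168 and 1412 with TMM), where 5 of the 10 genes rose and Gstp1 fell. The split was 587 higher and 1459 lower for CCl4 + siHAS2-LNP against CCl4 (1003 and 1035 with TMM), 2089 and 1078 in the siLuc-LNP arm (1841 and 1577), 1703 and 341 in the siHAS2-LNP arm (1093 and 719), and 179 and 2003 for the 4MU interaction (384 and 416). Gsta1 had 1 to 13 counts in 12 of the 13 livers without CCl4, which limits its ratios.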
